A study of Mus musculus with 48 samples.

Results

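Cytosolic ribosomal protein genes were followed across sorted cells of the mouse brain. The genes were chosen by symbol alone: every entry named Rpl, Rps or Rplp plus a number and at most 1 further letter, together with Rpsa. No expression value entered the choice. The rule found 81 of the 24421 entries in the deposited tables, 32 of them encoding proteins of the small subunit and 49 of the large subunit.

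The study sequenced RNA, labelled as polyadenylated, in 48 libraries of cells sorted from olfactory bulb (OB), cortex (CX) and hippocampus (HP), in 16 groups of 3 libraries. From each region came GFP-positive cells, titled astrocytes, and mCh-positive cells, titled neurons, of Aldh1l1-GFP mice given Gq-CNO or Gq-Saline. CNO is a drug-like ligand of engineered Gq-coupled receptors, and the labels name neither the receptor construct nor its promoter. From the olfactory bulb alone came GFP cells of Aldh1l1-GFP mice that were untreated or labelled CNO-control, and mCh cells, titled astrocytes, of Slc22a3-FF mice with Gfap-mCh (flox-control) or Gfap-Cre (labelled Slc22a3-cKO). In Aldh1l1-GFP mice an astrocyte promoter drives GFP, and Gfap sequences likewise favour astrocytes. The labels give no age, sex or animal number, and nothing in them says that libraries came from separate animals, so the p-values below measure only the spread between these libraries.

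Each cytosolic ribosome carries 1 copy of most of these proteins, wrapped around ribosomal RNA, and their genes are transcribed at high and closely matched rates in all cells. Many of the messages begin with a C and an unbroken run of pyrimidines, the terminal oligopyrimidine (TOP) tract, through which LARP1 and the kinase mTOR set their translation together. Because the messages are short, abundant and stable, they report on the translation capacity of a cell and also on how a library captured short transcripts.

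The starts of the genes are shown because that tract is the best-known feature the family shares. RefSeq promoter sequences (GRCm38.p6) matched 60 of the 81 symbols. In the 30 bases around the annotated start below, each 5′ to 3′ on the gene's strand, capitals mark a run of at least 5 C or T bases that begins with C within 5 bases of the start.
Rps6 (chr4:86857353-86857382, minus strand): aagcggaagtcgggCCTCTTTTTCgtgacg
Rplp2 (chr7:141447636-141447665, plus strand): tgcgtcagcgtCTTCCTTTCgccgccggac
Rpl13a (chr7:45128731-45128760, minus strand): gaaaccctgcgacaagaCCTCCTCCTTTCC
Rps2 (chr17:24720048-24720077, plus strand): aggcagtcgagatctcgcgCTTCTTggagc
Rpl39 (chrX:37085208-37085237, minus strand): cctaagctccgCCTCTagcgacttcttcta
Rpl10 (chrX:74270801-74270830, plus strand): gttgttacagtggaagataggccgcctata
Rplp0 (chr5:115559452-115559481, plus strand): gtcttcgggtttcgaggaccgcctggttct
Rps6, which encodes the mTOR-regulated phosphoprotein of the small subunit, carries a tract of 10 bases, and Rplp2, which encodes a protein of the stalk that recruits elongation factors, one of 9. Rpl10, which joins the large subunit late in its assembly, and Rplp0, the base of the stalk, have no such run in these windows. The tract was present at an annotated start of 28 of the 60 genes (46.7%), against 3569 of 16459 other coding genes (21.7%). The 60 genes had 72 promoter sequences, and a member with several starts was counted by its longest run. Among motifs searched in the 300-base promoters on both strands, CCGGAAG occurred in 25 member genes (41.7%) and 13.3% of the others, GGGCGG in 60% and 51.0%, and AAGATGG in 15% and 7.24%. TATAAA, searched on the gene's strand, occurred in 8.33% and 9.47%. These matches describe letters only.

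The libraries held 228048 to 24664376 reads (median 5706868), and 3 held under 1000000. Reads on the 81 genes numbered 2321 to 313774 per library, which sets the 95% Wilson interval of the summed share at 0.345% to 4.05% of its value on either side (counting error only). Slc22a3, the targeted gene, had 0, 0 and 12 reads in the 3 libraries labelled Slc22a3-cKO and 0 in each flox-control library, where 0 allows up to 0.241 to 0.337 reads per 1000000 reads (RPM). The gene therefore does not check that label. Its reads lay only in the third library labelled Slc22a3-cKO. Counts over a whole gene, in cells with markers of several types, cannot decide the label. The 18 GFP libraries of the Gq groups held the 12 astrocyte markers at a summed 49040 to 124378 RPM. The 18 mCh libraries of the Gq groups, titled neurons, held 12 neuron markers at 1715 to 4674 and 12 microglia markers at 4985 to 15638. They held 8 oligodendrocyte markers at 18277 to 60108 and the 12 astrocyte markers at 4778 to 20290. Astrocyte markers summed above neuron markers in each of these libraries. They summed above microglia markers in each olfactory bulb library and below them in each cortex and hippocampus library. The title of these libraries therefore goes against their leading markers, and they are called mCh cells here. The flox-control libraries, titled astrocytes, held astrocyte markers at 5397 to 11036 RPM and microglia markers at 5104 to 11157. Those labelled Slc22a3-cKO, also titled astrocytes, held 1330 to 4649 and 6115 to 12721. Microglia markers summed above astrocyte markers in every library labelled Slc22a3-cKO and in flox-control libraries 1 and 3. That title therefore also goes against the markers in most of these libraries, which are likewise called mCh cells. The 9 CNO-control, flox-control and Slc22a3-cKO-labelled libraries stood apart in the nuclear RNA Malat1, at 16524 to 57279 RPM against 544 to 10249.6 in the other 39. The column names of these 9 libraries begin with DS, and those of no other library do.

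Summed over the 81 genes, ribosomal protein messages took 0.258% to 3.73% of all reads, ordered by sort and by experiment. The tables were normalised separately, so levels set across them are recovered reads, which undo that scaling, in RPM. The 18 mCh libraries of the Gq groups lay at 1.90% to 3.73% (median 3.19%), all above the 18 GFP libraries at 0.714% to 1.21% (median 0.941%). Untreated olfactory bulb GFP cells lay at 0.653% to 0.799%. They overlapped that GFP range only through its lowest library, the unnumbered cortex Gq-CNO one (0.714%, 325129 reads). The next lowest lay at 0.847%, and the olfactory bulb libraries of that range lay at 0.901% or above. The CNO-control libraries lay lowest, at 0.270%, 0.260% and 0.258%.

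Within the mCh cells the order ran from cortex with Gq-CNO (3.69% ± 0.0507, SD, n = 3) and with Gq-Saline (3.36% ± 0.174), through hippocampus (3.28% ± 0.202 with Gq-CNO and 3.20% ± 0.0408 with Gq-Saline), to olfactory bulb (2.66% ± 0.164 with Gq-CNO and 2.34% ± 0.384 with Gq-Saline). In the GFP cells the 6 Gq group means ran only from 0.837% ± 0.108 in cortex with Gq-CNO to 1.03% ± 0.157 in hippocampus with Gq-Saline. Neighbouring groups overlap in both orders, apart from cortex mCh cells with Gq-CNO and with Gq-Saline and the step from hippocampal to bulb mCh cells, where no libraries overlap. The libraries labelled Slc22a3-cKO were uneven, at 1.16%, 1.23% and 0.675%, and the flox-control libraries held 0.549%, 0.413% and 0.605%. In bulk libraries, fewer cells rich in these messages and less of the message per cell cannot be told apart.

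**Figure D1:**
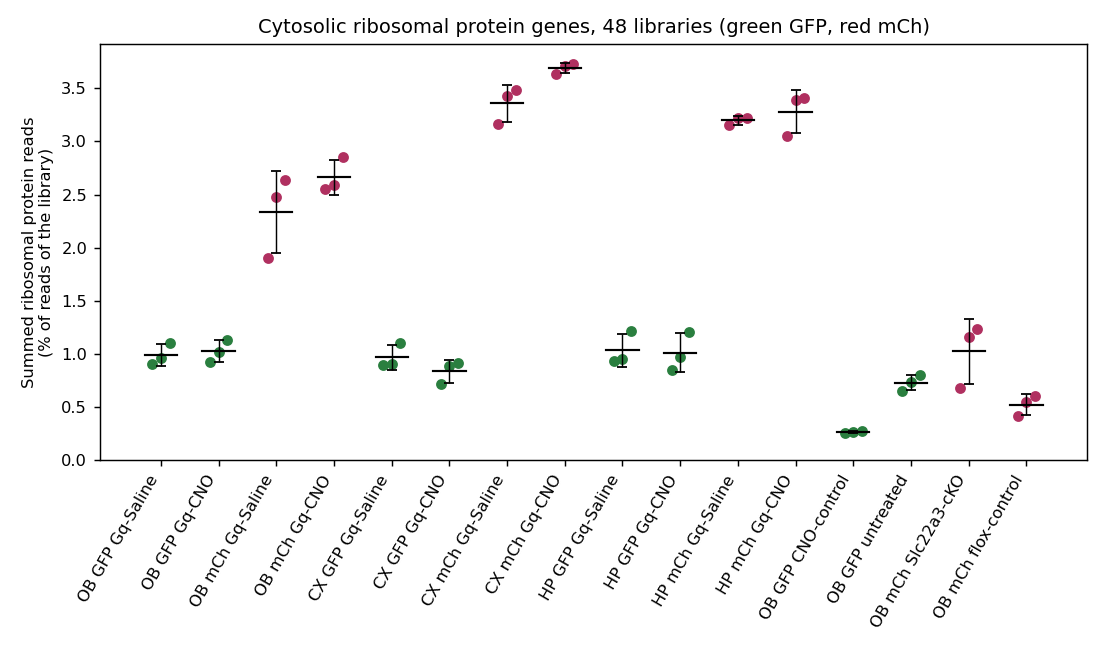
Summed reads of the 81 ribosomal protein genes as a percentage of all reads of the library (vertical axis) in the 16 groups (horizontal axis), with a dot per library, the group mean (line) and SD (bar, n = 3). The mCh libraries of the Gq groups lie at 1.90% or above, all GFP libraries at 1.21% or below, and the CNO-control libraries at 0.270% or below.

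Small-subunit genes supplied 29.7% to 40.0% of the ribosomal protein reads (median 37.02%). The mCh libraries of the Gq groups held 36.8% to 40.0%. The CNO-control libraries, at 34.1%, 30.6% and 31.8%, were among the lowest, and the unnumbered cortex GFP Gq-Saline library was the lowest of all.

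Members differed widely in level. Per kilobase of transcript, median levels over the 48 libraries ran from 29.7 RPM for Rps27l, a stress-responsive paralogue of Rps27, to 724 for Rpl31, with 641 for Rps29, 637 for Rpl41, 393 for the stalk gene Rplp1 and a median of 173. In reads, Rpl4 took the most of any member, a median of 4.25% of ribosomal protein reads, and its transcript is among the longer ones at 1538 bases.

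Of the 73 members with at least 10 RPM in at least 3 libraries, 72 had their lowest group mean in the CNO-control libraries. The exception, Rpl29, was lowest in flox-control. The highest mean lay in cortex mCh cells for 56 members (37 with Gq-CNO and 19 with Gq-Saline), in hippocampal mCh cells for 13 and in olfactory bulb mCh cells for 4. The distance between a member's highest and lowest group mean was 2.08 to 5.85 on the log2(RPM + 1) scale (median 3.96).

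Rplp1 varied most (5.85). Its mean level was 15.5 ± 3.52 RPM (SD, n = 3) in CNO-control, 42.8 ± 11.3 in flox-control, 121 ± 12.9 in untreated GFP cells and 935 ± 42.5 in hippocampal mCh cells with Gq-CNO. Rpl37a (5.12), Rpl32 (5.07), Rpl13a (5.03) and Rpl37 (5.01) followed. Rpl3, which reaches into the catalytic centre, varied least (2.08), from 128 ± 8.45 in CNO-control to 555 ± 136 in olfactory bulb mCh cells with Gq-CNO, and Rpl15 (2.18), Rpl4 (2.63), Rps27l (2.71) and Rpl7a (2.88) also stood at the narrow end.

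Much of this range was common to the whole family. When each member was taken as a share of the library's ribosomal protein reads, the range of group means was 0.475 to 2.28 on the log2 scale (median 1.13), and for 28 of the 73 members it was under 1. Rps7 (0.475), Rpl23 (0.529) and Rps18 (0.565) kept the steadiest share. Rplp1 supplied 0.590% ± 0.141 of the family's reads in CNO-control and 2.85% ± 0.0524 in hippocampal mCh cells with Gq-CNO, whereas Rpl3 supplied 4.87% ± 0.292 in CNO-control and 1.30% ± 0.126 in the latter. Rpl4 and Rpl15 likewise had their highest share in CNO-control, at 8.11% and 3.05%.

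**Figure D2:**
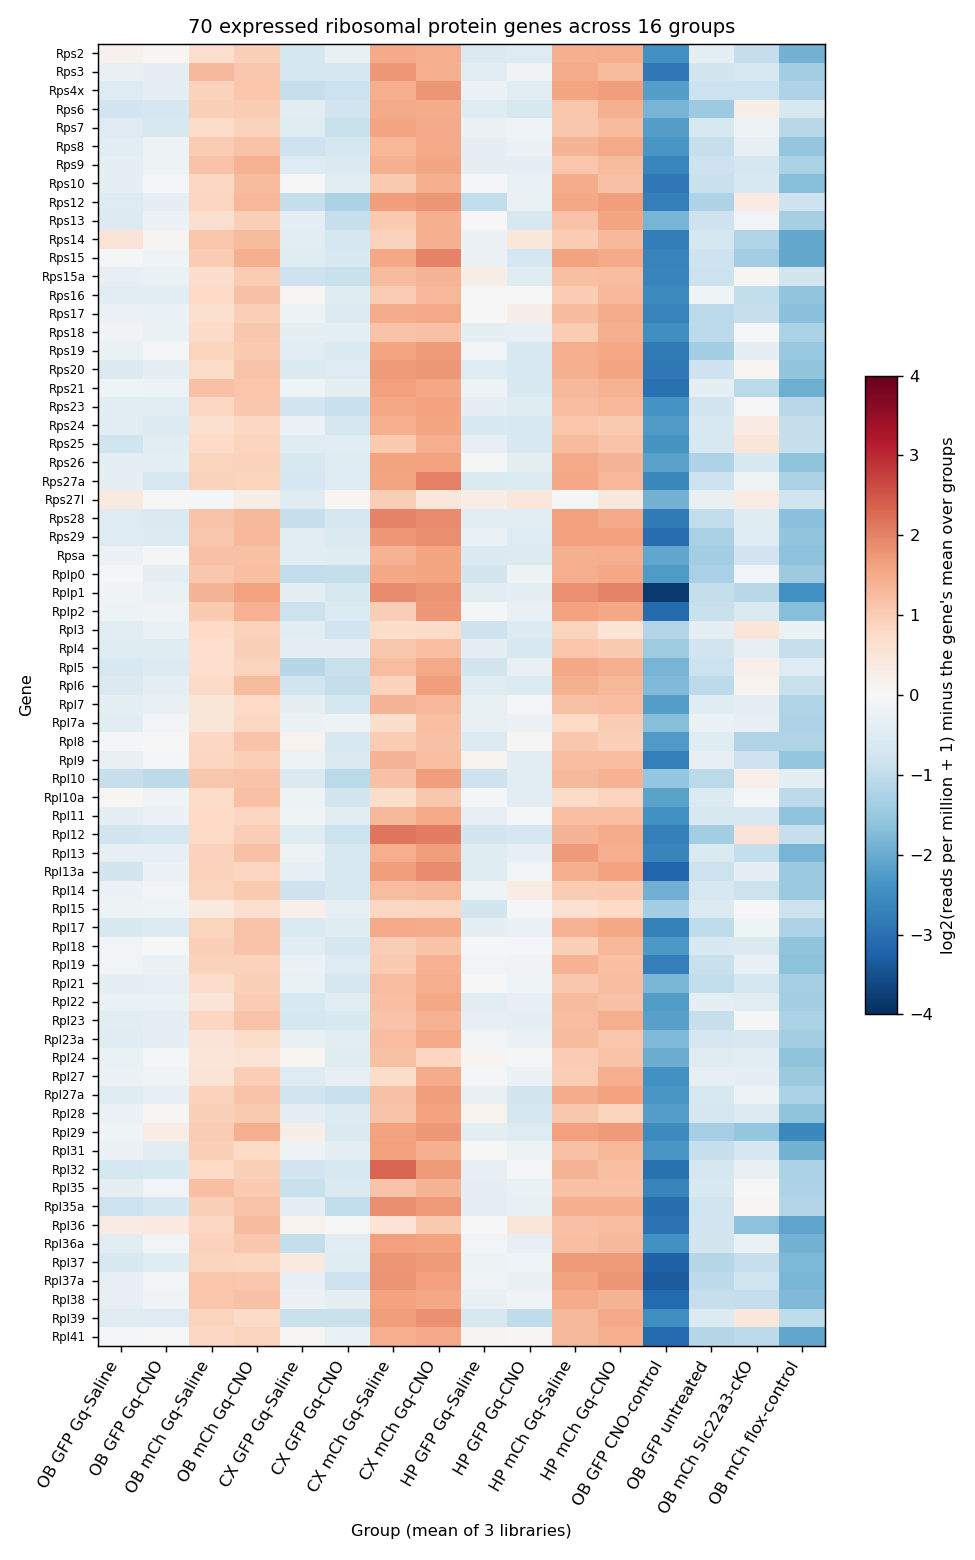
Level of 70 of the 73 expressed members (rows, small subunit first; the other 3 are not reported by name) in the 16 groups (columns), as log2(RPM + 1) minus the gene's mean over groups, from blue (lower) to red (higher). Nearly all rows share 1 pattern, red in the mCh columns of the Gq groups and dark blue in CNO-control, and Rpl3 and Rpl15 span the narrowest range between group means (2.08 and 2.18).

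The other 8 members had few reads. Rpl10l and Rpl39l, paralogues that are expressed mainly in testis, had 0 reads in all 48 libraries. Rpl3l, a paralogue of striated muscle, had 73 reads over 9 libraries, and Rps4l, a paralogue of the X-linked Rps4x, had 544 over 40 libraries. Rpl26, Rpl30, Rpl34 and Rps27 encode regular proteins of the ribosome, yet had 4, 107, 91 and 98 reads.

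The levels of members with close copies are uncertain. In the reference transcripts, 77 of the 80 members found there shared at least 1 word of 50 bases with a pseudogene, and over all 80 a median of 43.5% of such words were unique to the gene. For 27 members the share was under 25%, among them Rpl10 (7.87%), Rps18 (13.3%) and Rpl3 (14.4%). Reads in the tables also lay on copies outside the rule, at a median of 103 RPM for Gm5148, 53.7 for Rpl31-ps12 and 29.3 for Rpl14-ps1. Unique share and level per kilobase were weakly and inversely related over the 73 members (Pearson r = -0.28, across genes of the same libraries, a description).

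The first comparison asks what Gq-CNO did within each region and sort, against Gq-Saline. By limma, no ribosomal protein gene passed the threshold, an adjusted p (Benjamini-Hochberg) under 0.05, in any of the 6 comparisons, out of 73 or 74 members tested. The share of all genes called was 0.00847% in olfactory bulb GFP cells and 0% in the other 5. Members with an unadjusted p under 0.05 numbered 1, 0 and 1 in GFP cells and 0, 1 and 0 in mCh cells of olfactory bulb, cortex and hippocampus, where 1.42% to 5.30% of all genes did so, and edgeR and DESeq2 on the recovered reads also called 0 in each.

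Median log2 differences over the members, on the log2(normalised value + 1) scale, were 0.07, -0.14 and -0.03 in GFP cells of olfactory bulb, cortex and hippocampus, and 0.20, 0.06 and 0.04 in mCh cells. All genes had medians from -0.06 to 0.05. In olfactory bulb mCh cells, 61 of 73 members lay above 0 and for 12 the 2 groups did not overlap, where 5.72% of all genes did the same in that direction. One of these was Rpl6, at normalised values of 1676, 1300 and 1368 with Gq-CNO against 890, 1222 and 1043 with Gq-Saline, a log2 difference of 0.46 ± 0.26 (SE; limma adjusted p = 0.900). Gq-Saline library 1 was also the lowest of its group in the summed share, at 1.90%.

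Rpl6 in cortex mCh cells stood at 1477, 2556 and 1741 with Gq-CNO and 1199, 1085 and 1367 with Gq-Saline (0.63 ± 0.29, adjusted p = 0.967 by limma). The stalk gene Rplp2 there had 934, 1035 and 1038 against 578, 665 and 649 (0.67 ± 0.33, adjusted p = 0.967 by limma). The groups do not overlap for either gene, and neither passed the test. In hippocampal mCh cells Rpl3 pointed the other way, at 936, 954 and 1186 against 1229, 1237 and 1545 (-0.38 ± 0.26, adjusted p = 0.990 by limma).

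The comparison of GFP with mCh cells sets the astrocyte sort against the other sort of the same region. Ribosomal protein genes were lower in GFP cells almost throughout: 69 of 73 members in olfactory bulb, 72 in cortex and 72 in hippocampus were called lower and none higher (limma on log2(RPM + 1), 6 libraries against 6). Of all genes, 13.6%, 23.1% and 21.8% were called lower. The members' medians were -1.30, -2.03 and -1.70, or 2.47-, 4.08- and 3.25-fold lower, where all genes had -0.03, -0.09 and -0.13. The GFP and mCh cells lie in separate tables, so table and sort cannot be told apart.

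Rplp1 in olfactory bulb ran from 191 to 218 RPM in GFP cells (median 200) and from 472 to 787 in mCh cells (median 666). The groups were far apart, and the log2 difference was -1.68 ± 0.19 (limma adjusted p = 1.44e-09). In cortex the same gene had 123 to 263 (median 142) against 706 to 999.6 (median 856), and in hippocampus 143 to 240 (median 169) against 785 to 967 (median 903). The differences were -2.38 and -2.33. Whether the step differs between regions was not tested.

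Large-subunit genes with the smallest p included Rpl10, at 93.1 to 141 (median 113) against 356 to 644 (median 515) in olfactory bulb (-2.09 ± 0.23). Rpl5, which binds the smallest ribosomal RNA with Rpl11, had 67.6 to 182 against 618 to 1017 in cortex (-2.46 ± 0.20). None of these groups overlap. Rpl39, a small protein of the exit tunnel, fell by 2.95 on the log2 scale in cortex, with 20.4 to 145 against 450 to 866.

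On the small subunit, Rps6 had 91.1 to 193 (median 147) in GFP and 307 to 545 (median 497) in mCh cells of olfactory bulb (-1.70 ± 0.22). Rps28 had 50.3 to 78.2 against 379 to 496 in cortex (-2.75 ± 0.24), and the X-linked Rps4x had 70.0 to 249 against 874 to 1315 (-2.61 ± 0.22). Rpsa, also known as a laminin receptor precursor, had 149 to 180 against 615 to 720 in hippocampus (-1.997 ± 0.19). Again no groups overlap.

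Rps27l was the member that passed in no region. Its levels were 7.42 to 24.96 RPM in GFP and 2.45 to 25.9 in mCh cells of olfactory bulb, and its log2 differences were 0.29, -1.39 and 0.35 (limma adjusted p = 0.826, 0.104 and 0.752). Rpl3 showed one of the smaller steps among called members in cortex, at 138 to 289 against 397 to 566 (-1.37 ± 0.18). GFP and mCh libraries did not overlap for 66, 65 and 66 members, with GFP lower, against 9.72%, 8.23% and 11% of all genes.

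Related gene groups moved with the family in part. Of 18 translation factors tested, 9, 14 and 9 were called lower in GFP cells of the 3 regions and none higher, among them Eef1a1, the main elongation factor (-1.34 ± 0.13 in olfactory bulb and -1.80 ± 0.13 in cortex), and Tpt1, another TOP message (-1.51 and -2.40). Rps3a1 and Fau, ribosomal protein genes whose names miss the rule, were called lower in cortex, at -2.52 and -2.75. Of 76 mitochondrial ribosomal protein genes tested, 4, 16 and 12 were called higher and 0, 1 and 1 lower, with medians of 0.57, 0.82 and 0.60. Of all genes, 7.87%, 16.7% and 13.6% were called higher, near the shares of this list.

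Markers of other cells moved with the same comparison. All 12 microglia markers were called lower in GFP cells in each region, with medians from -6.01 to -5.59, as were all 8 oligodendrocyte markers, while 11, 12 and 12 of 12 astrocyte markers were higher. Summed microglia markers were at 86.6 to 2731 RPM in the 18 GFP libraries. The part of these cells in the ribosomal protein difference was not tested.

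The largest contrast within a table set CNO-control against untreated GFP cells of the olfactory bulb. Column names of the CNO-control libraries begin with DS, and those of the untreated ones do not. Treatment and that series of names cannot be told apart. All 73 tested members were lower in CNO-control, no member's groups overlapped, and 70 were called (limma; 12.2% of all genes were called in either direction, 6.88% lower, and 16.2% had groups that do not overlap with CNO-control lower). The median log2 difference was -1.998, or 3.995-fold lower, against 0.11 over all genes, and the members ran from -3.23 (Rplp1) to -0.68 (Rpl10).

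The stalk genes fell unequally. Rplp1 had normalised values of 56.8, 44.6 and 69.7 in CNO-control and 624, 523 and 465 in untreated cells. That is 9.36-fold lower (-3.23 ± 0.28, limma adjusted p = 7.53e-05), the largest step of any member. Rplp2 had 47.53, 37.4 and 66.7 against 419, 242 and 230 (-2.52 ± 0.36), and Rplp0, which anchors both, had 125, 114 and 72.8 against 239, 274 and 216 (-1.25 ± 0.30, limma adjusted p = 0.0194).

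Among other large-subunit genes, Rpl9 had 75.9, 101 and 92.5 against 528, 602 and 639 (-2.71 ± 0.24), and Rpl13 had 236, 171 and 206 against 921, 1249 and 932 (-2.33 ± 0.21). Rpl13a had 49.3, 42.1 and 37.4 against 292, 274 and 242 (-2.63 ± 0.32). Rpl7a, Rpl41 and Rpl19 were also among those with the smallest p, at -1.72, -2.27 and -2.15. Rpl4 and Rpl3, long and abundant members, showed smaller steps. Rpl4 had 911, 783 and 670 against 1314, 1553 and 1575 (-0.92 ± 0.17, limma adjusted p = 0.00424), and Rpl3 changed by -1.06 ± 0.17.

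Small-subunit genes spanned the same range. Rps16 had 48.7, 58.5 and 47.0 against 385, 294 and 338 (-2.70 ± 0.30), Rps2 fell by 2.31 and Rps4x by 1.62 on the log2 scale. Rps27a, which is made as a fusion with ubiquitin, changed by -2.13 ± 0.35, Rps19 by -1.73 ± 0.45 and Rpsa by -0.94 ± 0.23. The other 3 members missed the threshold although their groups did not overlap. They were Rpl10 (-0.68 ± 0.23, limma adjusted p = 0.0725), Rps6, at 239, 201 and 264 against 409, 370 and 357 (-0.69 ± 0.22, limma adjusted p = 0.0590), and Rps27l (-2.09, limma adjusted p = 0.0551).

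**Figure D3:**
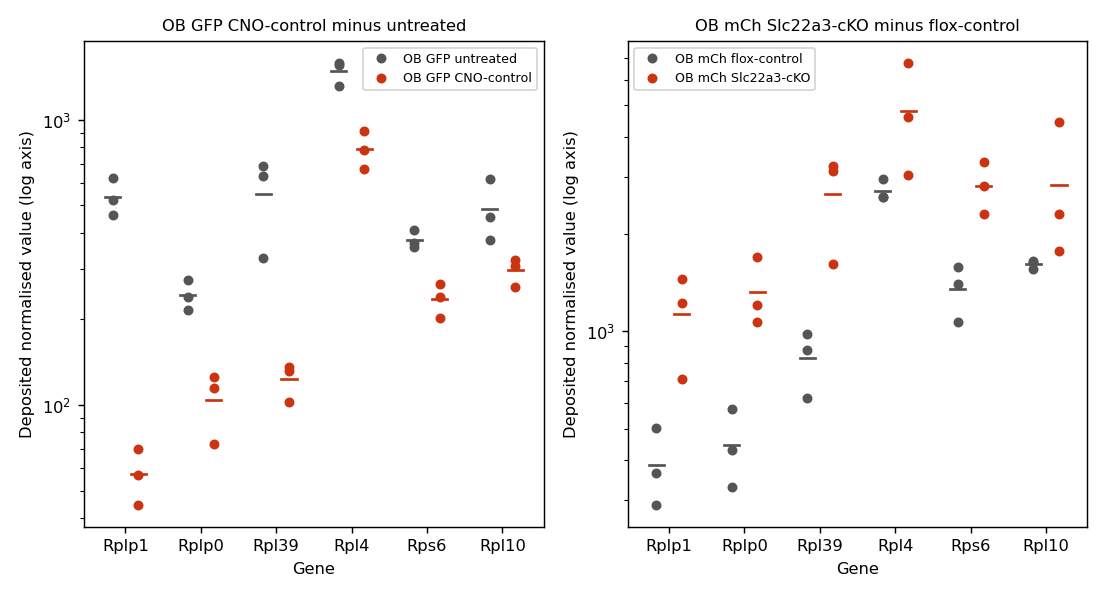
Deposited normalised values (log axes) of 6 members in each library, with CNO-control (red) against untreated (grey) GFP cells on the left and libraries labelled Slc22a3-cKO (red) against flox-control (grey) mCh cells on the right; lines mark group means (n = 3). On the left the red dots lie below all grey dots for each gene, by most for Rplp1 and least for Rpl10. On the right the third library labelled Slc22a3-cKO holds the lowest red dot for each gene.

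Shortness went with the size of the step here. Members of at most 500 bases had a median of -2.18 (n = 17), those of 501 to 1000 bases -1.95 (n = 39) and longer ones -1.52 (n = 17), with a Pearson r of 0.38 between log2 length and difference over 73 members of the same libraries. Other genes of at most 500 bases had a median of -1.57, with 21 of 52 called lower. Those of 501 to 1000 bases had a median of -0.84, and those above 4000 bases 0.25. Of the 80 members with a reference transcript, 61 are at most 1000 bases long (median 705, against 2270 over coding genes). The part of length in the difference was not tested.

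Malat1 moved in the opposite direction, at 23725, 34036 and 41045 RPM in CNO-control, against 3203, 4276 and 2545 in untreated cells (log2 difference 3.04, limma adjusted p = 1.25e-05). Of 12 microglia markers, 10 were called lower (median -3.24). Their summed level was 113 to 192 RPM in CNO-control and 583 to 719 in untreated cells. Of 7 oligodendrocyte markers tested, 2 were called higher and 1 lower (median 1.07), and the 8 in the table summed to 1938 to 2749 RPM against 1052 to 1463. Of 12 astrocyte markers, 1 was called higher and 4 lower (median -0.12), at 45586 to 52501 against 54119 to 61454. Rn45s differed by -1.19 (limma adjusted p = 0.000827). The part of each of these in the ribosomal protein difference was not tested.

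Of 18 translation factors, 8 were called lower (median -0.91), led by Eef1a1 (-0.98 ± 0.13) and Tpt1 (-1.11 ± 0.17). Of 73 mitochondrial ribosomal protein genes 9 were called lower and none higher (median -0.81). Of 28 ribosome biogenesis factors, 2, Nop56 (1.34) and Utp20 (1.31), were called higher and none lower (median 0.29, against 0.11 over all genes). Of all genes, 12.2% were called in either direction and 6.88% lower, so those 2 calls are not read as a result about that list. Members with a pyrimidine tract near an annotated start, as marked above, had a median of -2.03 (n = 26) and those without one -1.94 (n = 28). This split follows the annotated starts, and lacking a run there does not show that a message lacks a TOP tract.

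The comparison of libraries labelled Slc22a3-cKO with flox-control asks what loss of this transporter for monoamines did to mCh cells of the olfactory bulb. Slc22a3 itself does not check the label. Both sides are titled mCh, yet column names say RFP for the libraries labelled Slc22a3-cKO and mCh for flox-control. The label and that wording cannot be told apart. All 73 tested members were higher in the libraries labelled Slc22a3-cKO, with a median log2 difference of 1.19 (2.28-fold) against -0.10 over all genes. Of these, 6 were called by limma (2.53% of all genes were called in either direction and 1.37% higher), 56 had an unadjusted p under 0.05 (18.4% of all genes), and for 48 the groups did not overlap, against 10.6% of all genes with the labelled libraries higher.

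The 6 called members were 5 of the large subunit and Rps25. Rpl39 had 3249, 3128 and 1619 in the libraries labelled Slc22a3-cKO against 878, 621 and 982 (1.65 ± 0.35, limma adjusted p = 0.0346). Rplp0 had 1204, 1695 and 1065 against 430, 330 and 573 (1.58 ± 0.35), and Rpl36a had 672, 716 and 402 against 146, 167 and 165 (1.86 ± 0.42). In each, the third library is the lowest of its group yet above every flox-control library. Rpl31, Rpl19 and Rps25 showed 1.40, 1.54 and 1.57, with adjusted p-values by limma up to 0.0491.

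Others missed the threshold with like or smaller differences. Rplp1 had 1223, 1456 and 711 against 365, 290 and 500 (1.52 ± 0.39, limma adjusted p = 0.0610), and Rps6 had 2808, 3346 and 2302 against 1583, 1070 and 1405 (1.06 ± 0.29, limma adjusted p = 0.0770). Their groups do not overlap. Rps2 had 712, 566 and 201 against 215, 249 and 177 (1.03 ± 0.51, limma adjusted p = 0.312), and Rps4x showed 0.54 ± 0.35 (limma adjusted p = 0.461). For Rps2 the third library falls among the controls.

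The count turned on single libraries. Without the third library labelled Slc22a3-cKO 52 members were called, and without any 1 of the other 5 libraries 0 were called, always with a median above 0. The count was 2 by edgeR and 30 by DESeq2. In the third library summed ribosomal protein reads were at 0.675%, Malat1 at 42503 RPM and neuron markers at 1125, against 27655 and 16524 for Malat1 and 396 and 409 for neuron markers in the other 2 libraries of its group.

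Of 12 neuron markers, 4 were called lower in the libraries labelled Slc22a3-cKO (median -2.56), as were 3 of 12 astrocyte markers (median -0.80) and 1 of 5 oligodendrocyte precursor markers (median -3.80). Microglia markers had a median of 0.89 with none called, at 6115 to 12721 RPM against 5104 to 11157. The part of these cells in the difference was not tested. Of 77 mitochondrial ribosomal protein genes none was called (median 0.00), nor was any of 19 translation factors (median 0.51).

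Regions were compared within the single table of mCh cells, 6 libraries of both treatments against 6. Olfactory bulb held less of the family than cortex: 25 of 74 members were called lower and none higher (limma; 8.58% of all genes called in either direction, 2.99% lower). The median was -0.49, against 0.39 over all genes, and 23 members did not overlap (1.59% of all genes in that direction).

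Rpl12, of the stalk base, had 356 to 725 (median 554) in olfactory bulb against 865 to 2044 (median 1078) in cortex (-1.19 ± 0.23, limma adjusted p = 0.000425). Rpl39 had 562 to 999 against 1150 to 2201 (-0.92 ± 0.21), and Rps27a 595 to 707 against 922 to 1835 (-0.89 ± 0.20). None of the groups overlap. Rpl23a, Rps24 and Rps20 were lower by -0.76, -0.78 and -0.86, while Rpl3 had a difference of 0.08 (limma adjusted p = 0.831) and Rpl4 one of -0.34 (limma adjusted p = 0.165).

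The precursor ribosomal RNA entry Rn45s took 18.2% to 23.1% of reads in olfactory bulb mCh cells and 8.00% to 18.02% in cortex and hippocampus. On RPM in place of the deposited scaling 25 members were called with Rn45s kept in the totals and 13 with it left out, alternatives of which the former was chosen after seeing the data. Astrocyte markers were higher in olfactory bulb (8 of 12 called, median 1.84) and microglia markers lower (6 of 12, median -0.66). The part of these in the difference was not tested.

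Against hippocampus, olfactory bulb mCh cells were lower in 4 of 74 members (3.91% of all genes called in either direction, 1.62% lower by limma; median -0.37 against 0.14). Rpl5 had 1072 to 1561 (median 1282) against 1787 to 2457 (median 2136), a difference of -0.72 ± 0.17 (limma adjusted p = 0.00683). Rpl37 (-0.88), Rps4x (-0.63) and Rpl13 (-0.53) were the others. On RPM the count was 4 with Rn45s kept and 2 with it left out, and on the deposited scaling it was 2 without hippocampal Gq-CNO library 1 or 3 or olfactory bulb Gq-CNO library 2 or 3. Between cortex and hippocampus limma and edgeR called 0 members, 3 had an unadjusted p under 0.05 (10.7% of all genes), and 0.388% of all genes were called (median 0.10).

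In GFP cells the regions were closer. Olfactory bulb was higher than cortex in 2 of 73 members (limma; 6.99% of all genes called in either direction, 5.79% higher; median 0.26 against 0.35 over all genes). One was Rplp0, at 100 to 150 RPM against 18.02 to 106 (0.97 ± 0.28, limma adjusted p = 0.0199), whose groups overlap. Both calls were lost without the unnumbered libraries, and edgeR called 0. Leaving out single libraries gave 0 calls (cortex Gq-CNO unnumbered, cortex Gq-Saline unnumbered, olfactory bulb Gq-Saline 2 or 3) to 7 (cortex Gq-Saline 1).

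Against hippocampus, limma and edgeR called 0 members for olfactory bulb (2 with an unadjusted p under 0.05, as had 14.1% of all genes; 5.17% of all genes called; median -0.02) and 0 for cortex (13 with an unadjusted p under 0.05, as had 10.6% of all genes; 0.629% of all genes called; median -0.21). For the latter, 3 were called without cortex Gq-Saline library 1. These regions lie in separate tables, so region and table cannot be told apart.

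Of the remaining contrasts across tables, flox-control mCh cells held more of the family than CNO-control GFP cells, both of the olfactory bulb. Of 73 members, 41 were called higher and none lower (limma; 11.9% of all genes called in either direction, 7.85% higher), with a median of 0.98 (1.97-fold) against 0.26. Rps15a had 98.4, 69.6 and 101 RPM against 27.6, 22.8 and 19.16 (1.90 ± 0.33, limma adjusted p = 1.83e-05). Rplp1 had 41.4, 32.3 and 54.6 against 14.8, 12.4 and 19.3 (1.40 ± 0.27). The groups do not overlap for these or for 60 members in all (29.6% of all genes in that direction).

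Rpl4, at 296, 290 and 323 against 237, 217 and 186, was not called (0.51 ± 0.30, limma adjusted p = 0.370). Flox-control and CNO-control share the high Malat1 range. They differ in table, mouse line, sort and treatment label, since only the CNO-control label names CNO. All 12 microglia markers were higher (median 5.61) and all 12 astrocyte markers lower (median -2.45) in flox-control. The part of each of these was not tested. edgeR called 22, and the count fell to 27 without CNO-control library 1 or 2, 24 without flox-control library 1 and 20 without flox-control library 3. This contrast shares its flox-control libraries with the comparison of libraries labelled Slc22a3-cKO, so those comparisons are not independent.

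Gq-Saline and untreated GFP cells of the olfactory bulb, the controls of separate tables, differed by a member median of 0.44 (0.13 over all genes) with 0 members called by limma or edgeR, 19 with an unadjusted p under 0.05 (4.97% of all genes), and 0.0579% of all genes called. For 31 members the groups did not overlap with Gq-Saline higher (12.3% of all genes). Rpsa had 199, 225 and 196 RPM against 75.9, 92.2 and 110 (1.16 ± 0.27, limma adjusted p = 0.0869), Rpl41 had 248, 265 and 278 against 116, 122 and 136 (1.078), and Rpl3 had a difference of -0.06.

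**Figure D4:**
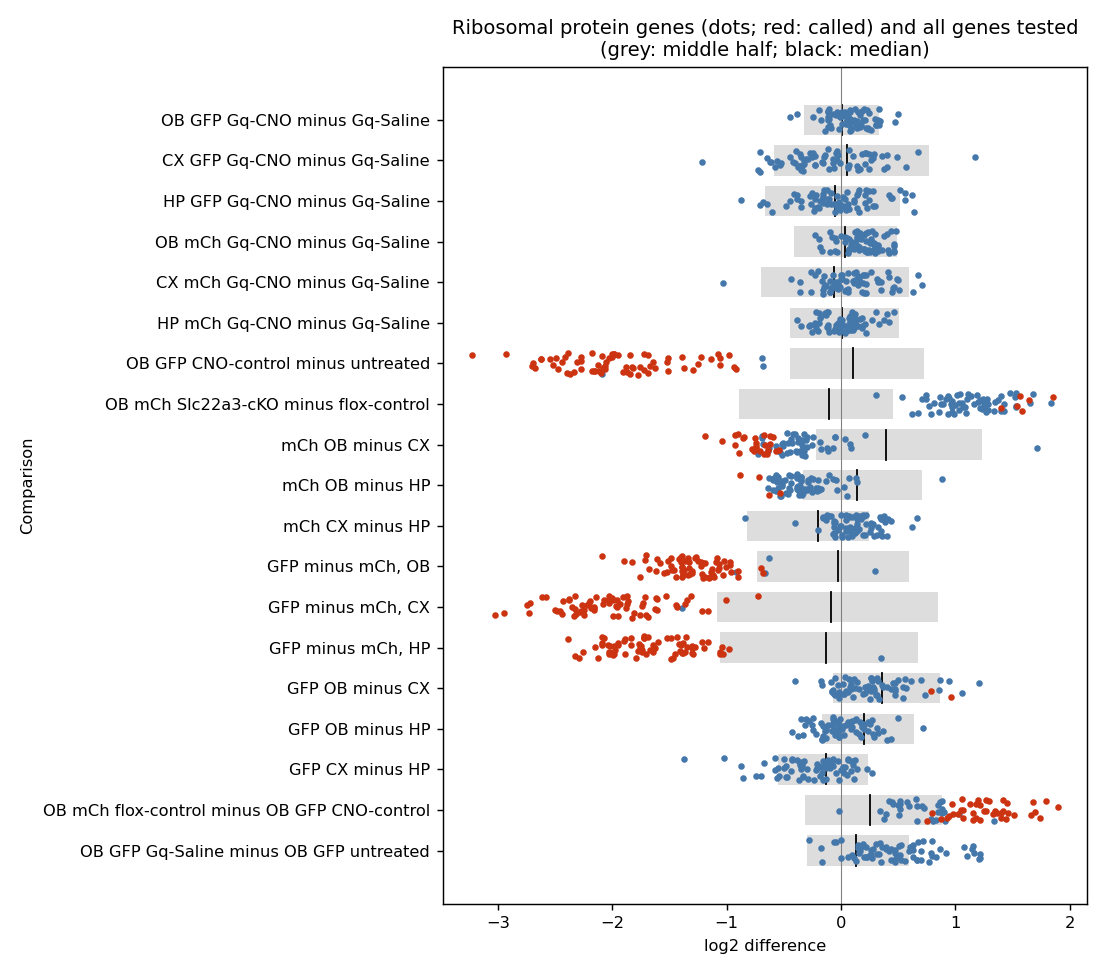
Log2 difference (horizontal axis) of each tested member (dots, red where called at a limma adjusted p under 0.05) in 19 comparisons (rows), over the range between the lower and upper quartile of all genes tested (grey bar) and their median (black line). The 6 rows of Gq-CNO against Gq-Saline centre near 0, and the rows of CNO-control and of GFP minus mCh lie almost wholly to the left of the grey bars.

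Set side by side, the comparisons differ in which other genes went with the family. In CNO-control against untreated cells, other genes of at most 500 bases had a median of -1.57 and mitochondrial ribosomal protein genes -0.81. In GFP against mCh cells such short genes had medians of 0.14, 0.09 and 0.16. The ribosomal protein genes were at -1.30, -2.03 and -1.70. The short genes that passed the minimum differ between comparisons, and GFP against mCh cells was compared on RPM in place of deposited values. In libraries labelled Slc22a3-cKO the short genes had 0.26 against 1.19 for the family. Small- and large-subunit genes had medians of -2.01 and -1.99 in CNO-control, 1.195 and 1.19 in the libraries labelled Slc22a3-cKO, and -1.33 and -1.25, -2.16 and -1.95, and -1.74 and -1.52 in GFP against mCh cells of olfactory bulb, cortex and hippocampus.

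**Figure D5:**
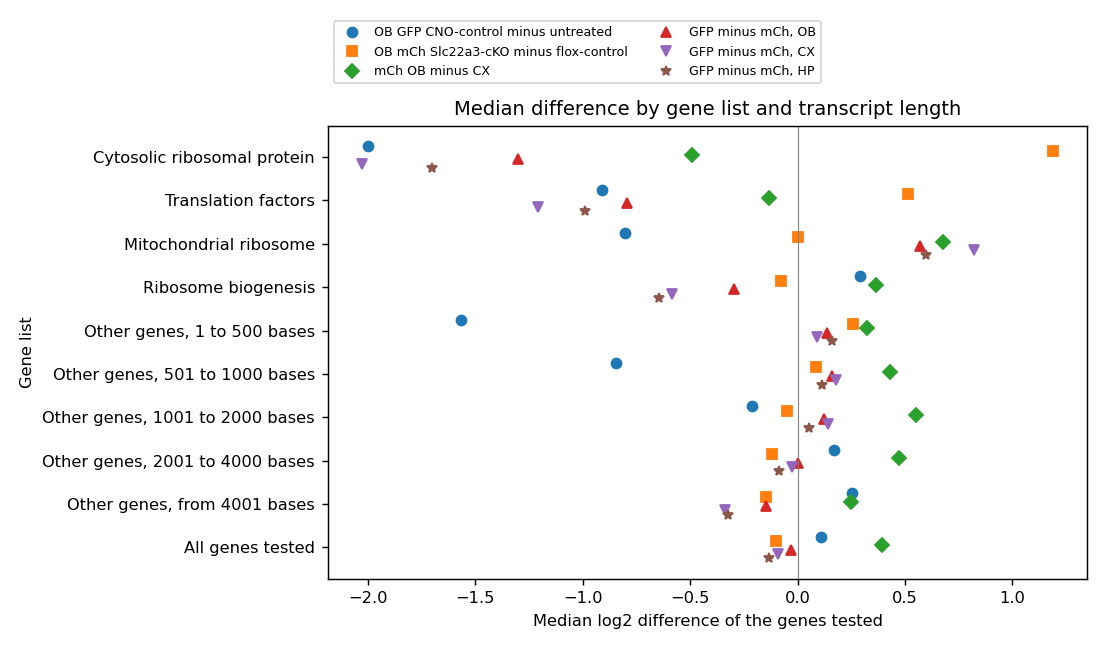
Median log2 difference (horizontal axis) of the cytosolic ribosomal protein genes, 3 related lists, other genes by transcript length and all genes tested (rows) in 6 comparisons (symbols). The family lies furthest from 0 in each comparison but olfactory bulb against cortex mCh cells, where mitochondrial ribosomal protein genes reach 0.68 and the family -0.49. Other genes of at most 500 bases reach -1.57 in CNO-control against untreated cells.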

How the data were processed

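Cells were sorted by fluorescence and RNA was extracted with the RNeasy Micro kit, and 10 ng went into Trio RNASeq libraries, per the labels' protocols. The submitters' processing notes name STAR 2.5.0a, DESeq2 1.30.1 and mm10. The authors deposited 6 tables of normalised read counts (signal: reads divided by size factors), each normalised separately. All values were whole multiples of a column's smallest positive value within 0.05, so whole reads were recovered. Within tables, limma 3.58.1 (R 4.3.3) tested log2(deposited value + 1) for genes at 10 or more in at least 3 libraries. Across tables it tested log2(reads per 1000000 reads + 1) over 48 libraries with the same minimum per 1000000. Calls had a Benjamini-Hochberg adjusted p under 0.05. edgeR 4.0.16 and DESeq2 1.42.0 on recovered reads were alternatives, with other pseudocounts, filters, scalings and left-out libraries. The methods were also run on simulated data, with the same dispersion for every gene and all changed genes moved in the same direction. That run does not measure how they behave at the spread of these libraries. Of the entries, 27 have date-like names. No 2 libraries of a group agreed within counting noise (chi-square per degree of freedom 9.56 to 186). In 4 cortex and hippocampus GFP groups 1 column names its group only and is called unnumbered.

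Per comparison, up to 8 higher and 8 lower called members with the smallest p were eligible to be named, or 4 and 4 where under 3 were called, besides a fixed set of stalk, core and paralogue genes. Some genes are not reported here by name. The members and lists were chosen with earlier results of these data known. Promoters and gene starts come from RefSeq, and transcripts from GENCODE M21. The number of reads per library, 228048 to 24664376, limits the precision of the lowest members.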

Additional observations from a re-analysis of the deposited data

How the results depend on the processing

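The medians of the family kept their sign under all settings in CNO-control against untreated cells (-2.01 to -1.86), in libraries labelled Slc22a3-cKO against flox-control (0.91 to 1.52) and in GFP against mCh cells (-1.38 to -1.20, -2.06 to -1.65 and -1.78 to -1.49 in olfactory bulb, cortex and hippocampus). The count of called members in libraries labelled Slc22a3-cKO depended most on the method: 2 by edgeR, 30 by DESeq2, 11 with TMM, 3 with no filter, 1 with a pseudocount of 0.1 and 0 to 52 leaving out single libraries. On RPM the count for mCh olfactory bulb was 13 against cortex and 2 against hippocampus without Rn45s, and 25 and 4 with it (added after seeing the data; 2 to 5 against hippocampus leaving out single libraries). For GFP olfactory bulb against cortex it was 0 by edgeR, with joint size factors, without unnumbered libraries and without shallow ones, and 0 to 7 leaving out single libraries; for GFP cortex against hippocampus that range was 0 to 3. For flox-control against CNO-control it was 22 by edgeR and 20 to 45 leaving out single libraries, and for Gq-Saline against untreated 1 with no filter. The cause was not tested. Under edgeR's scaling the median of all genes moved by over 0.1 in 8 comparisons, most in GFP olfactory bulb against cortex (0.35 to 0.089), mCh olfactory bulb against cortex (0.39 to 0.17) and GFP against mCh cells of cortex (-0.09 to 0.12).

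Same-numbered libraries did not deviate together throughout (correlations of deviations from -0.09 to 0.12 in the 8 comparisons of treatments or genotypes within a table, and from -0.079 to 0.073 over 50 pairs in the contrasts between regions, sorts and experiments), so the numbers were not taken to pair them. The setting with the replicate number as a block also left out the unnumbered libraries. Under it, 0 members were called in libraries labelled Slc22a3-cKO, 0 in GFP olfactory bulb against cortex and 4 in Gq-Saline against untreated cells. No other count moved by over 1.5 times. In GFP olfactory bulb against cortex, leaving out the unnumbered libraries alone also gave 0.

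Without Rn45s in the total, mean summed reads per 1000000 were 9909 and 11247 in cortex GFP cells (Gq-CNO, then Gq-Saline), 11969 and 12134 in hippocampal GFP, 12325 and 11954 in olfactory bulb GFP, 42595 and 38347 in cortex mCh, 39144 and 37734 in hippocampal mCh, 33235 and 29309 in olfactory bulb mCh, 2918 in CNO-control and 8980.4 in untreated cells.

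Signs of uncalled members turned when single libraries were left out. For Gq-CNO against Gq-Saline the ranges were -0.32 to 0.032 for Rpl31 in olfactory bulb GFP, -0.29 to 1.95 for Rpl35 and -0.00012 to 0.65 for Rpl5 in cortex GFP, -0.37 to 0.044 for Rpl39 in olfactory bulb mCh and -0.75 to 0.15 for Rpl32 in cortex mCh. Between regions they were -0.023 to 0.16 for Rpl3 (mCh olfactory bulb against cortex), -0.47 to 0.38 for Rps27l (mCh olfactory bulb against hippocampus), -0.31 to 0.088 for Rps16 and -0.14 to 0.0055 for Rpl23a (GFP olfactory bulb against cortex), and -0.013 to 0.44 for Rpl15, -0.036 to 0.30 for Rps24 and -0.16 to 0.33 for Rpl4 (GFP cortex against hippocampus). Rps27l in olfactory bulb GFP against mCh had -0.19 to 0.55, and Rpl3 in Gq-Saline against untreated cells -0.14 to 0.038. Without unnumbered libraries Rps16 was at 0.12, Rpl23a at 0.018, Rpl4 at -0.13 and Rps27l (cortex GFP against mCh) at 0.032; with the block Rps16 was at 0.16 and Rpl4 at -0.13.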
